A study of Acipenser schrenckii with 5 samples.

Results

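The miR-200, miR-141 and miR-429 probes were examined as a family on a miRNA microarray of 5 tissues of the Amur sturgeon, Acipenser schrenckii. The family was chosen with earlier results of these data known. Members were taken by name, as every probe whose name after the 3-letter species prefix starts with miR-200, miR-141 or miR-429 with no further digit. This gave 12 of the 663 miRNA probes on the array, and the probe annotation lists 23 fish miRNA entries for these 12 sequences. The prefixes stand for common carp (ccr), zebrafish (dre), channel catfish (ipu) and medaka (ola), so each probe was designed on a miRNA of another fish and not on sturgeon sequence. The RNA came from liver, muscle, heart, spleen and brain of 1 fish of 5 months with no treatment stated, with 1 single-color (Cy3) array per tissue. The labels spell the brain sample "Bain", and they state 2 to 5 µg of total RNA for each array, whereas the methods state 4 µg. With 1 array per tissue no test between tissues was possible. Every error below is the SD over the 5 repeat spots of a probe or, for a ratio, is propagated from such SDs. These errors are technical and hold no difference between fish.

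The miR-200 family is known as the miRNA family of epithelia. In mammals its members are made from a pair of gene clusters and repress ZEB1 and ZEB2, transcription factors that shut down E-cadherin, the adhesion protein of epithelial cells. In zebrafish, members are known from the olfactory epithelium and from ion-transporting cells of the skin. Each array here was of a bulk tissue, in which fewer epithelial cells and less miRNA per epithelial cell cannot be told apart.

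A miRNA selects its targets mainly through its seed, bases 2 to 8 from the 5′ end, and the family holds a pair of seeds that differ by the substitution C4U. The 4 probes of miR-200a and miR-141 carried the seed AACACUG. These sequences are given because the zebrafish miR-141 and miR-200a sequences differ only at the 3′ end, which bears on whether the array can separate them. They are the probe targets in the deposited scanner files, 5′ to 3′, with the seed in capitals, and no genome was used, so none has coordinates.
ccr-miR-200a: uAACACUGucugguaacgaug
dre-miR-141: uAACACUGucugguaacgaugc
dre-miR-200a: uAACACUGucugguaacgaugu
ola-miR-200a: AACACUGucugguaacga
The medaka sequence has 18 bases and lacks the first base and the last bases of the others, so its seed stands at positions 1 to 7. The zebrafish miR-141 and miR-200a sequences differ by the single substitution C22U, with positions counted from 1 at the 5′ end.

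The 8 probes of miR-200b, miR-200c and miR-429 carried the seed AAUACUG. They are shown to mark how little separates miR-200b from miR-200c and miR-429a from miR-429b.
dre-miR-200b: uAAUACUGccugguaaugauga
ipu-miR-200b: uAAUACUGccugguaaugaugau
ola-miR-200b: uAAUACUGccugguaaugaug
dre-miR-200c: uAAUACUGccugguaaugaugc
dre-miR-429a: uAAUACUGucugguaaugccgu
ipu-miR-429a: uAAUACUGucugguaaugccg
dre-miR-429b: uAAUACUGccugguaaugccau
ipu-miR-429b: uAAUACUGccugguaaugcca
From zebrafish miR-200b to miR-200c the only substitution was A22C, and from miR-429a to miR-429b the substitutions were U9C and G21A in both zebrafish and catfish. Any pair of members differed by 1 to 8 single-base edits. Because members differ so little, cross-hybridization within the family cannot be told apart from signal of each member, and 12 probes are not 12 independent measurements. None of the other 651 probes held either seed at the same place, and the nearest of them was 7 edits from a member. No probe for the opposite (5p) arm of these hairpins was among the members.

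Each array held 3315 probe spots and 361 empty spots, and the median density of the empty spots lay between 52.0 in heart and 98.4 in liver. Empty spots scattered most on the liver array, with an SD of 58.5 against 4.91 to 17.6 elsewhere. Tissue labels were checked with probes of known tissue miRNAs. The highest Signal was in liver for 12 of 12 probes of miR-122, miR-192 and miR-194, in brain for 14 of 17 of miR-9, miR-124 and miR-219, in muscle for 19 of 19 of miR-1, miR-206 and miR-133, in heart for 3 of 3 of miR-499 and in spleen for 13 of 19 of the blood cell miRNAs miR-142, miR-223, miR-144, miR-451 and miR-150. Only 9 of the 12 liver probes were detected in liver, so that count includes values that failed detection. The miR-1 and miR-133 probes, also taken as heart markers, were highest in muscle. Without normalization between arrays the blood cell probes summed to 90253 in heart and 89074 in spleen, so spleen did not then stand above heart.

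The raw density, the scanner value before any correction, was low in brain for every member and also low in spleen for some. For ccr-miR-200a the mean raw density was 1902 ± 199 in liver, 1490 ± 192 in muscle, 1488 ± 106 in heart, 338 ± 20.8 in spleen and 103 ± 3.88 in brain. The brain spots of this probe ran from 99.7 to 108 against a median of 77.6 for the empty spots there. Across the 12 members, mean raw densities ran from 289 to 1902 in liver, from 278 to 1684 in muscle and from 156 to 1488 in heart. They ran from 81.5 to 338 in spleen and from 81.7 to 147 in brain, so the spleen and brain ranges overlapped. The low end in spleen was dre-miR-429b, with 81.5 ± 2.75 there and 84.1 ± 8.11 in brain.

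**Figure D1:**
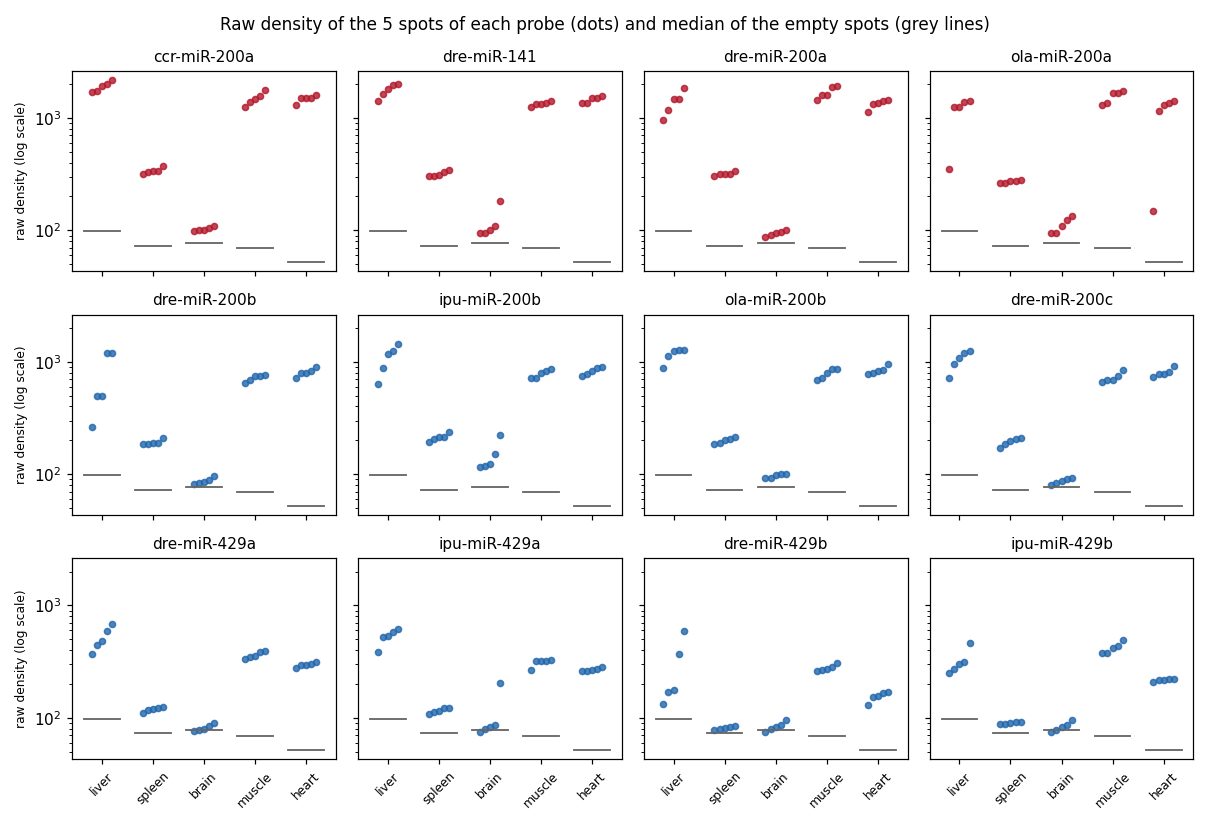
Raw density (log scale) of each of the 5 spots of the 12 probes by tissue, with a grey line at the median of the empty spots of that array; red marks the miR-200a and miR-141 seed and blue the miR-200b, miR-200c and miR-429 seed. Brain spots lie below every liver, muscle and heart spot of the same probe for all 12 probes, with single higher brain spots up to 225 for ipu-miR-200b, and single low spots stand out in liver and heart for ola-miR-200a.

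Spots of the same probe scattered most in liver. The CV over the 5 spots had a median of 24.1% in liver and reached 67.2%, whereas the medians were 9.12% in muscle, 8.37% in heart, 5.20% in spleen and 8.18% in brain. Single spots set some of these errors. For ola-miR-200a in heart 1 spot had a raw density of 148 and the other 4 reached up to 1412, and in liver the lowest spot was 355 and the highest 1408. The liver spots of dre-miR-200b ran from 265 to 1202.

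A probe was called detected where at least 50% of its spots lay over the local background (the median of 20 surrounding empty spots) by an excess of 3 SDs of the empty spots, with a CV over the pixels of the spot under 0.5. By this rule 11 of 12 members were detected in liver, against 29.7% of all probes there. In muscle and in heart 12 of 12 were detected, against 65% and 52% of all probes. In spleen 10 of 12 were detected (all probes, 50.2%). In brain 0 of 12 were detected, although 55.8% of all probes were. Each member was detected in at least 1 tissue, as were 71.9% of all probes. The exceptions outside brain were both of miR-429b: dre-miR-429b passed with 2 of 5 spots in liver and none in spleen, and ipu-miR-429b passed with 2 of 5 spots in spleen.

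Signal, the background-corrected and cyclic loess normalized intensity, was then compared across tissues for each seed group. Among the miR-200a and miR-141 probes, ccr-miR-200a had a Signal of 4528 ± 487 in liver, 3009 ± 404 in muscle, 869 ± 67.8 in heart, 418 ± 26.5 in spleen and 38.3 ± 3.66 in brain (not detected). For dre-miR-141 it was 4195 ± 587 in liver, 2669 ± 130 in muscle, 855 ± 53.9 in heart, 394 ± 26.9 in spleen and 52.5 ± 34.9 in brain (not detected). These probes had the same order of tissues, with liver above muscle by more than the spot error, muscle above heart in this normalization, heart above spleen and brain lowest.

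The other probes with this seed had liver and muscle close together. The Signal of dre-miR-200a was 3231 ± 815 in liver, 3380 ± 435 in muscle, 800 ± 65.5 in heart, 405 ± 22.5 in spleen and 31.7 ± 4.79 in brain (not detected). That of ola-miR-200a was 2554 ± 1034 in liver, 3093 ± 407 in muscle, 654 ± 332 in heart, 356 ± 32.9 in spleen and 51.7 ± 19.0 in brain (not detected). For each of these the liver and muscle values overlapped within their spot errors.

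Among the miR-200b and miR-200c probes, dre-miR-200c had a Signal of 2244 ± 483 in liver, 1400 ± 145 in muscle, 539 ± 54.1 in heart, 260 ± 24.4 in spleen and 28.3 ± 5.22 in brain (not detected). The Signal of ola-miR-200b was 2540 ± 390 in liver, 1518 ± 163 in muscle, 554 ± 46.8 in heart, 261 ± 19.1 in spleen and 38.9 ± 4.85 in brain (not detected). For both of these probes the order in this normalization was again liver, muscle, heart, spleen and brain. Without normalization between arrays their ratio of muscle to heart was 0.874 ± 0.124 for dre-miR-200c and 0.908 ± 0.132 for ola-miR-200b. The Signal of ipu-miR-200b in liver was 2394 ± 785 against 1511 ± 133 in muscle, and that of dre-miR-200b was 1529 ± 999 against 1394 ± 107. Of these 4 probes, only dre-miR-200b had liver and muscle within the spot error in the main normalization.

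The miR-429a probes followed the same order in the main normalization. For dre-miR-429a the Signal was 939 ± 258 in liver, 671 ± 49.1 in muscle, 223 ± 14.4 in heart, 168 ± 11.3 in spleen and 22.1 ± 5.81 in brain (not detected). For ipu-miR-429a it was 953 ± 161 in liver, 560 ± 53.4 in muscle, 199 ± 6.68 in heart, 163 ± 10.6 in spleen and 47.5 ± 59.8 in brain (not detected). The large brain SD of ipu-miR-429a came with 1 spot at a raw density of 204.

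Of the miR-429b probes, the catfish one had its higher value in muscle and not in liver, and the zebrafish one was not detected in liver. The Signal of ipu-miR-429b was 513 ± 166 in liver, 763 ± 94.2 in muscle, 176 ± 8.82 in heart, 116 ± 3.93 in spleen (not detected) and 23.6 ± 8.62 in brain (not detected). For dre-miR-429b it was 425 ± 27.7 in muscle and 135 ± 18.1 in heart, and the probe fell short of detection in liver (408 ± 386), spleen (88.8 ± 10.4) or brain (22.1 ± 9.45). The liver value of dre-miR-429b therefore carries no order against muscle.

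**Figure D2:**
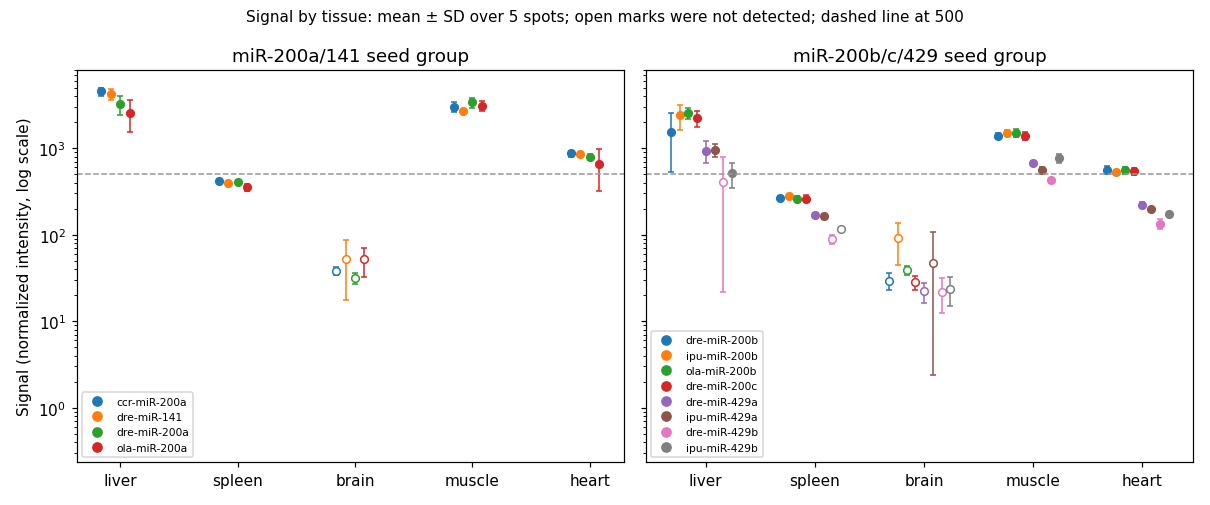
Signal (normalized intensity, log scale) by tissue for the miR-200a and miR-141 seed group (left) and the miR-200b, miR-200c and miR-429 seed group (right); points are means and bars SDs over 5 spots, open points were not detected, and the dashed line marks 500. All 12 points in brain are open, and in this normalization the liver and muscle points lie above heart and spleen for every probe.

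The study took signals above 500 as strong only together with a criterion on P, which was not applied here. Its values were also normalized in another way, so the counts below are not its strong calls. A Signal above 500 was reached by 11 of 12 members in liver (all probes, 31.1%), 11 in muscle (32.3%) and 8 in heart (29.7%). It was reached by 0 of 12 in spleen (30.5%) and 0 of 12 in brain (32.9%), and by 11 of 12 in at least 1 tissue (48.4%). In heart the 8 were the miR-200a, miR-141, miR-200b and miR-200c probes, and the 4 miR-429 probes had Signal from 135 to 223 there. The member below 500 was dre-miR-429b in both liver and muscle.

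The absence of detection in brain was shared by all 12 members. Of these, 10 were detected in each of the other 4 tissues, and for these 10 brain lay below each other tissue. The same held for 50 (10.5%) of the 477 probes detected in at least 1 tissue, a set that includes the members. Brain lay at least 2-fold below each other tissue for the same 10 members, and for 18 (3.77%) of the 477 probes with these 10 counted. For the miR-429b probes neither spleen nor brain was above the limit, so these tissues have no order. Liver was at least 77.8-fold above brain for ccr-miR-200a and at least 72.1-fold for dre-miR-141, with bounds set by the lowest Signal detected in brain, 58.2. No bound includes the spot error of the higher tissue, which was wide for dre-miR-200b in liver (1529 ± 999). The median bound over the members was at least 38.6-fold for liver over brain (11 probes), 24.0-fold for muscle (12 probes), 9.39-fold for heart (12 probes) and 4.54-fold for spleen (10 probes). For the same comparisons the median over all probes detected in both tissues was between 0.815 and 1.02. That set leaves out every probe not detected in brain, as all members were, so the contrast is partly fixed by the sets. These bounds hold for this normalization: without it they were at least 30.5-fold for ccr-miR-200a and at least 28.3-fold for dre-miR-141 in liver over brain, and the medians were 16.2-fold for liver, 11.003-fold for muscle, 12.7-fold for heart and 2.31-fold for spleen.

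How far the members lay from detection in brain differed among them. Above the median of all empty spots of the array, their mean density in brain was between 4.14 (dre-miR-429a) and 69.0 (ipu-miR-200b). The detection limit was 52.9, counted from the nearby empty spots instead, so the scales differ somewhat. The mean of ipu-miR-200b exceeded 52.9 on the first scale, but only 2 of its 5 spots passed the rule. With a robust SD of the empty spots the limit fell to 20.3, and 4 members were then detected in brain, namely ccr-miR-200a, dre-miR-141, ipu-miR-200b and ola-miR-200a. A low level of miR-200a, miR-141 or miR-200b in brain was therefore not detectable by the main rule, which does not show that it is absent.

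By Signal, liver was highest for 8 of 12 members (14.7% of the 477 probes) and muscle for 4 (22.6%). No member had its highest Signal in spleen (22.6%), brain (32.5%) or heart (7.55%). The ratio exceeded 1 by more than the error propagated from the spots for 7 probes, each with liver over muscle. When the arrays were scaled by the spike calibration spots instead, only ipu-miR-429a, at 1.50 ± 0.32, kept a ratio above 1 beyond the error, and dre-miR-200a, ola-miR-200a and ipu-miR-429b lay below 1 beyond it. With the main normalization it was 1.50 ± 0.26 for ccr-miR-200a, 1.57 ± 0.23 for dre-miR-141, 1.60 ± 0.38 for dre-miR-200c and 1.67 ± 0.31 for ola-miR-200b. For ipu-miR-200b it was 1.58 ± 0.54, for dre-miR-429a 1.40 ± 0.40 and for ipu-miR-429a 1.70 ± 0.33. No highest tissue was called for dre-miR-200a, ola-miR-200a, dre-miR-200b and the 2 miR-429b probes. The ratio of ipu-miR-429b, 0.672 ± 0.233 for liver to muscle, lay below 1 by more than its error, while its inverse of 1.49 ± 0.51 did not exceed 1 by more than its own. The median ratio over the 11 members detected in liver was 1.50, against 1.11 for the 194 probes detected in both tissues, and 27.8% of these were at or above the members' median.

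**Figure D3:**
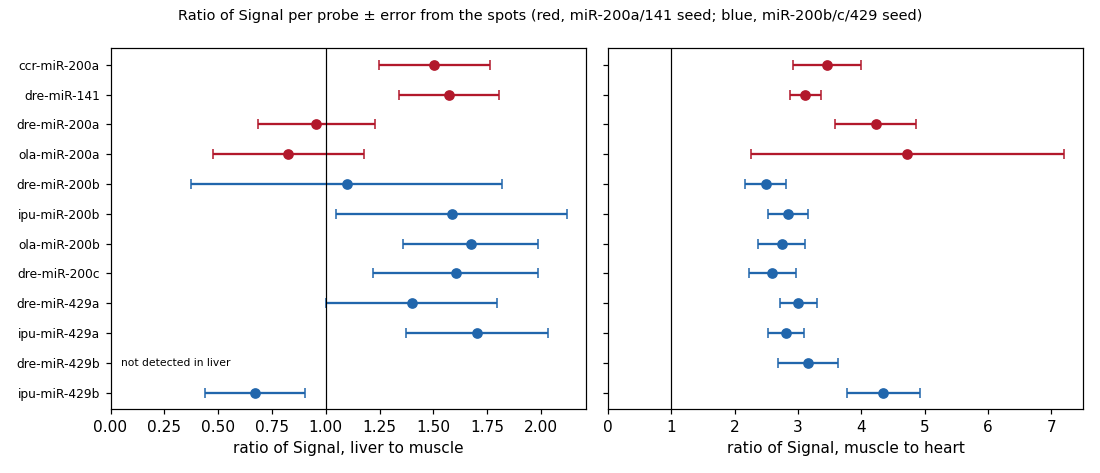
Ratio of Signal for each probe, liver to muscle (left) and muscle to heart (right), with bars for the error propagated from the spot SDs and a line at 1; red marks the miR-200a and miR-141 seed and blue the miR-200b, miR-200c and miR-429 seed. Liver to muscle ranges from 0.672 to 1.70 on either side of 1, while muscle to heart is above 1 for all 12 probes in this normalization and for 6 of 12 without normalization between arrays.

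Muscle over heart was 3.06-fold at the median of the 12 members and ran from 2.49 ± 0.32 (dre-miR-200b) to 4.73 ± 2.47 (ola-miR-200a), above 1 beyond the spot error for 12 of 12. This fold rested on the normalization between arrays. Without it the median was 1.04, with 6 of 12 probes above 1, 4 of them beyond the spot error. The ratio was then below 1 beyond the error for dre-miR-141 (0.900 ± 0.073), dre-miR-200b (0.856 ± 0.102) and dre-miR-200c (0.874 ± 0.124), and the mean raw densities of ccr-miR-200a in muscle and heart, given above, differed by less than their SDs. The median over all 334 probes detected in both tissues also moved, from 1.07 to 0.312. Relative to it the members were 2.87-fold higher in muscle with normalization and 3.34-fold without, so their place in relation to other miRNAs changed little while their own ratio did.

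Heart exceeded spleen by a median of 1.94-fold, from 1.22 ± 0.09 (ipu-miR-429a) to 2.17 ± 0.20 (dre-miR-141), against 0.852 for all 298 probes detected in both tissues. The bounds of the miR-429b probes over spleen were at least 1.51-fold (ipu) and at least 1.52-fold (dre). Without normalization between arrays the median was 5.12, against 1.94 for all probes. The members lay 2.28-fold above the median of all probes with normalization and 2.63-fold without. Liver exceeded spleen by a median of 7.98-fold and muscle exceeded spleen by a median of 5.63-fold.

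The whole order had liver and muscle above heart, heart above spleen and spleen above brain. It was found for the 10 members detected in the first 4 tissues and for 11 (2.31%) of the 477 probes, with these 10 counted. This order, like the one without normalization given next, was taken from the members' own Signal. Counts among members are therefore descriptions and not tests. Not all steps of the whole order exceed the spot error for every probe: heart and spleen overlapped for ola-miR-200a, and liver and heart for dre-miR-200b. Without normalization between arrays brain lay below spleen and spleen below the others for 9 of 12 members, since the bound of ipu-miR-429a in spleen over brain fell to 0.989. This held for 10 (2.1%) of the 477 probes, with these 9 counted. Liver was then highest for 8, muscle for 3 and heart for 1, dre-miR-200b, whose ratio of liver to heart went from 2.73 ± 1.81 to 0.860 ± 0.573.

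**Figure D4:**
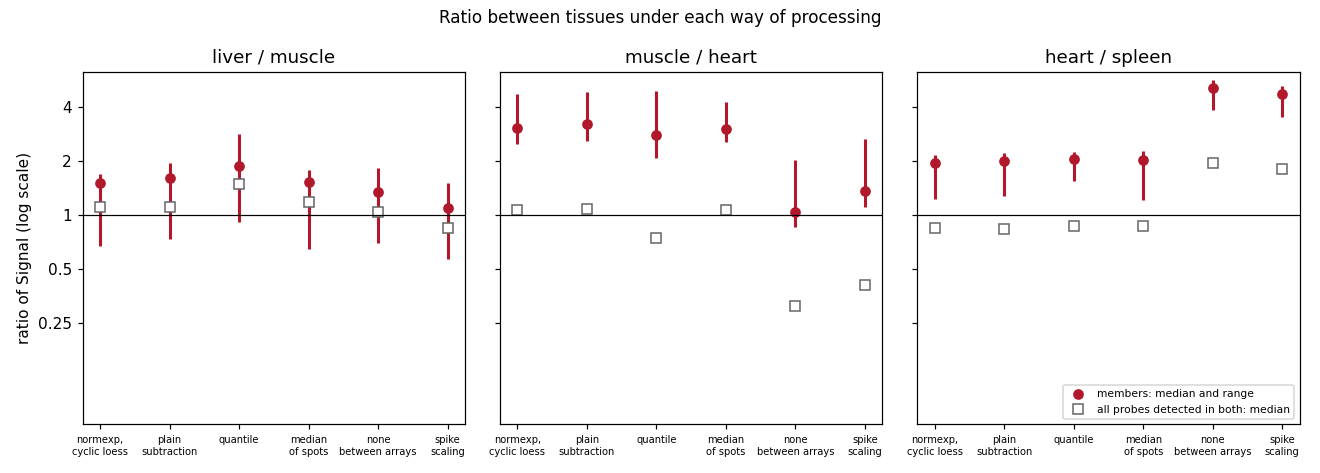
Ratio of Signal (log scale) for liver to muscle, muscle to heart and heart to spleen under 6 ways of processing; red points and bars are the median and range of the members, and open squares the median of all probes detected in both tissues. The members' median stays above the square in every panel, and muscle to heart falls from a median of 3.06 to 1.04 without normalization between arrays.

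The seed groups were then set side by side. Muscle over heart had a median of 3.84 for the 4 miR-200a and miR-141 probes (3.12 to 4.73) and of 2.83 for the 8 others (2.49 to 4.35). Liver over muscle ran from 0.826 to 1.57 in the first group and from 0.672 to 1.70 in the second. For both ratios the ranges of the groups thus overlapped.

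For some pairs of near-identical sequences the tissue ratios differed by more than the propagated spot error. A ratio of ratios, the liver to muscle ratio of one probe over that of another, removes any gain of an array that is common to both probes, and 16 comparisons, of 6 pairs of probes in up to 3 pairs of tissues, were computed after the values had been seen. Scaling a whole array cancels in it, so 5 ways of processing, all on the same spots, remain to be compared. For ipu-miR-429a over ipu-miR-429b, which differ by U9C and G21A, it was 2.53 ± 1.0 for liver to muscle and 0.648 ± 0.108 for muscle to heart. Both exceeded the spot error in 5 of 5 ways of processing, with ranges of 2.53 to 3.08 and 0.539 to 0.702. For liver to heart it was 1.64 ± 0.61, beyond the error in 3 of 5. In the catfish pair the miR-429b probe was thus weighted toward muscle against its miR-429a partner. The liver value of ipu-miR-429b, 513 ± 166, had 3 of 5 spots passing detection and lay near the lowest Signal detected in liver, 366. The zebrafish pair has the same substitutions, and its muscle to heart value for dre-miR-429a over dre-miR-429b was 0.952 ± 0.170, within the error, and beyond it in 2 of 5 ways of processing.

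Against ola-miR-200b, which differs from it by C19A, C20U and A21G, ipu-miR-429b had a ratio of ratios of 0.402 ± 0.158 for liver to muscle and 1.59 ± 0.30 for muscle to heart, also beyond the spot error in 5 of 5, and 0.637 ± 0.236 for liver to heart, beyond it in 3 of 5. For dre-miR-141 over dre-miR-200a, a difference of C22U alone, it was 1.64 ± 0.53 for liver to muscle and 0.738 ± 0.127 for muscle to heart, again beyond the spot error in 5 of 5. For liver to heart it was 1.21 ± 0.37, within the error in 5 of 5. For dre-miR-200c over dre-miR-200b, a difference of A22C alone, it was 1.46 ± 1.02 for liver to muscle, 1.04 ± 0.20 for muscle to heart and 1.52 ± 1.07 for liver to heart, within the spot error in 5 of 5 for each. The wide error of the liver values here came with the scattered liver spots of dre-miR-200b. For ccr-miR-200a over ola-miR-200a the liver to muscle value was 1.82 ± 0.84, beyond the spot error in 1 of 5, and the muscle to heart (0.732 ± 0.40) and liver to heart (1.34 ± 0.88) values were within it in 5 of 5. The ccr-miR-200a sequence lacks only the last base of dre-miR-200a and, equally, of dre-miR-141. It is also listed as catfish miR-141 and as catfish miR-200a, so it cannot be assigned to either. Its liver to muscle ratio was 1.50 ± 0.26, against 1.57 ± 0.23 for dre-miR-141 and 0.956 ± 0.271 for dre-miR-200a. Neither pair was among the 16 comparisons. The part of C22U in the split between dre-miR-141 and dre-miR-200a was not tested. With 1 array per tissue, none of these differences has a replicate check beyond the spots.

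Likeness of profile was measured as the root mean square difference of log2 Signal over the 5 tissues. Each profile was centred on its mean with Signal floored at 50, which removes overall brightness only where Signal lies above the floor. The member with the highest Signal, ccr-miR-200a, served as the reference. The 11 other members lay 0.08 (dre-miR-141) to 1.19 (dre-miR-429b) from it, with a median of 0.52. The 465 other probes detected in at least 1 tissue lay 1.39 or more from it, with a median of 2.41, and 0 of them fell within the range of the members. As members differ so little in sequence, likeness among them cannot be told apart from cross-hybridization within the family. In brain 9 of 12 members had a Signal under 50 and stood at the floor there. The floor shortens the drop to brain more for dimmer probes, so these distances also depend on brightness. The spread among members is therefore not a difference of profile alone.

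The 5 probes outside the family nearest to ccr-miR-200a were novel_6 at 1.39, ipu-miR-375 at 1.42, dre-miR-375 at 1.48, and ola-miR-148 and ola-miR-214 at 1.52 each. The probe novel_6 stands for a miRNA that the study lists as particular to sturgeon, with Signal of 2267 ± 277 in liver, 809 ± 60.9 in muscle, 873 ± 69.6 in heart, 529 ± 27.9 in spleen and 234 ± 11.3 in brain. Unlike the members it was detected in brain. miR-375 is a miRNA of endocrine and other epithelial cells, and ipu-miR-375 had Signal of 688 ± 63.5 in liver, 201 ± 10.7 in spleen and 515 ± 34.8 in muscle, and was detected neither in brain (43.2 ± 6.74) nor in heart (51.1 ± 35.5). By the main detection rule, heart thus parted the miR-375 probes from every member. The miR-429b probes also parted from miR-375 in spleen, and dre-miR-429b in liver, where miR-375 was detected and they were not. Under other settings 3 of these 5 probes stayed among the nearest 5 in the least stable cases.

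Other miRNAs known from epithelia were detected in other sets of tissues than the miR-200 family. Of the 10 probes of miR-203 and miR-205, miRNAs of skin epithelium, 9 were detected in muscle, 3 in spleen, 3 in brain and 0 in liver and heart. Detection was hardest in liver, where the lowest detected Signal was 366, against 28.0 to 58.2 in the other tissues. For ipu-miR-205 the Signal was 344 ± 81.4 in liver, not detected, and 110 ± 15.5 in spleen, detected. The counts therefore do not place skin miRNAs lower in liver than in spleen or brain. The Signal in muscle was 14267 ± 938 for ipu-miR-205, 9721 ± 227 for dre-miR-205, 8641 ± 559 for dre-miR-203a and 6879 ± 571 for dre-miR-203b-3p, and in heart none of the 10 exceeded 55.8. Summed over the 10 probes without normalization between arrays, Signal was 19554 in muscle and between 241 and 643 in the other tissues. Members of the miR-200 family were thus above 500 in liver, muscle and heart, whereas skin miRNAs were above 500 in muscle alone (4 probes), and the part of skin in the muscle values of the members was not tested.

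The 7 probes of miR-216, miR-217 and miR-375, known from pancreas, were detected in liver and spleen for 7 of 7, in muscle for 6, in brain for 3 and in heart for 0. Their summed Signal without normalization between arrays was 10623 in liver, 618 in muscle, 242 in heart, 5090 in spleen and 650 in brain, and fru-miR-216a reached 9222 ± 313 in liver. In heart, where 12 of 12 members of the miR-200 family were detected, neither the skin nor the pancreas list had a probe detected by the main rule. The SD of the empty spots in heart was 13.1, against a robust SD of 4.26. Some list probes lay above the empty median of 52.0 there, such as dre-miR-216a with a mean raw density of 87.3 ± 4.96. List counts with the robust SD are not given, so low levels of these miRNAs in heart may have gone undetected. The part of pancreas in the liver values of the members was not tested.

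The 12 probes of miR-183, miR-96 and miR-182, known from sensory epithelia, were detected in brain and muscle for 9 of 12 and in 0 of 12 in liver, spleen and heart, and none had a Signal above 500. By detection, their tissues therefore overlapped with those of the miR-200 family in muscle only, though the high liver limit given above holds here too. Of the 15 probes of miR-199, miR-214, miR-143 and miR-145, known from mesenchyme and smooth muscle, 14 were detected in every tissue, brain included.

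**Figure D5:**
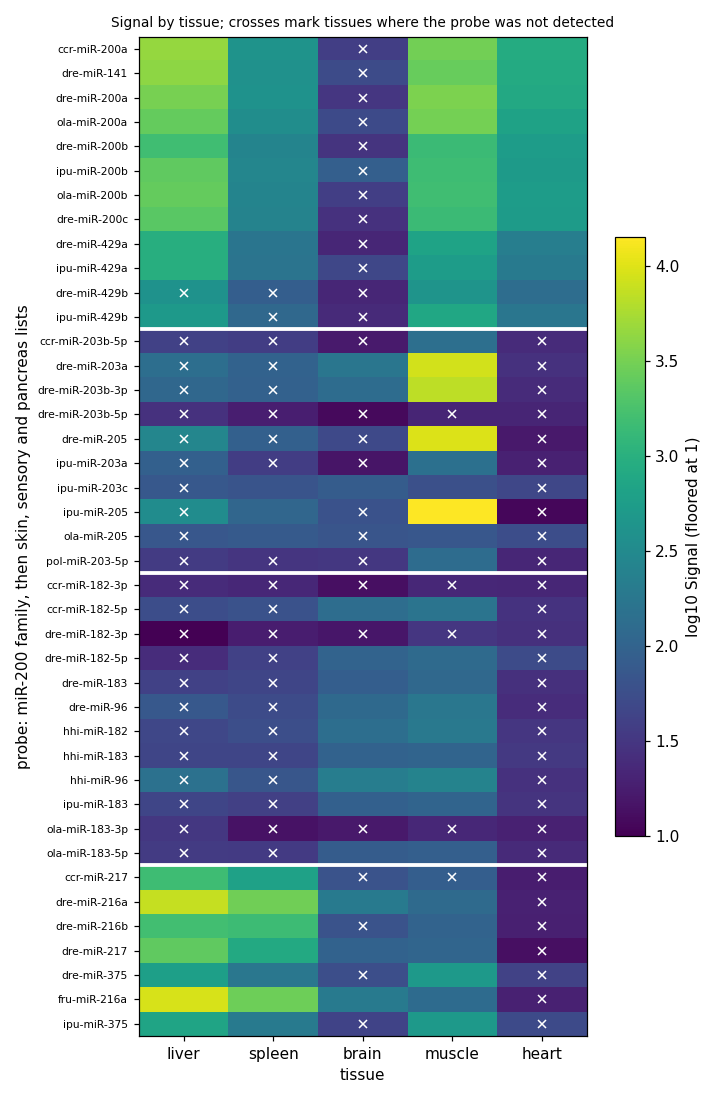
Signal (log10, floored at 1) by tissue for the 12 members, then the skin (10), sensory (12) and pancreas (7) probes, separated by white lines; colors are to be compared along a row, and crosses mark tissues where a probe was not detected. By the main detection rule, members are crossed in brain for 12 of 12 and uncrossed in heart, where every skin, sensory and pancreas probe is crossed.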

How the data were processed

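Microarray data of 5 tissues were analysed. Sequencing reads, real-time PCR and predicted targets were not analysed here. The authors deposited for each array the scanner output, the raw density of a spot (a linear intensity, as the median over its pixels) with its SD over the pixels, before background subtraction. Scanning used GenePix, and images were read with Array-Pro. The authors' processed table was not used, since its row names did not match the scanner intensities of the probes they name.

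Density was corrected by normexp (offset 50, fitted on all spots of an array) and normalized by cyclic loess (3 iterations, log2 scale) over 3315 probe spots with limma 3.58.1 in R 4.3.3, and the offset was then taken off. Signal is the mean over 5 spots. Other steps used Python 3.11.15, numpy 2.4.6, pandas 2.3.3 and matplotlib 3.10.9. Only the normalization and the choice of the highest tissue were tested on simulated data, for bright probes with planted changes. The simulated spot noise was smaller than the median CV of the members in liver. Where a probe was not detected in the lower tissue, its ratio was taken against its Signal there or that array's lowest detected Signal, whichever was higher, and is a lower bound (at least N-fold). A highest tissue was called only where its ratio exceeded 1 by more than the propagated spot error. The number of arrays, 1 per tissue, limits the precision.

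All members were named, with the 5 nearest other probes and the skin, sensory, pancreas and mesenchyme lists. The members and lists were chosen with earlier results of these data known. Alternatives were plain subtraction of local empty spots, the median of the spots, no normalization between arrays, quantile normalization, other thresholds, detection limits, floors and distances, and, chosen after seeing the data, scaling of whole arrays by the spike calibration spots.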

Additional observations from a re-analysis of the deposited data

How the results depend on the processing

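With 1 array per tissue no array could be left out. No paired analysis was possible because each tissue has a single array, all of 1 fish, and no test was made. Of 118 medians and counts, 97 moved by less than their error, or by no more than 1.5 times for counts and bounds, and none reversed. Brain lay below each other tissue for 9 of the 10 members detected in the other 4 tissues without normalization between arrays and for 10 under each other way of making Signal, and liver was highest for 7 to 10 of 12. Detection in brain rose from 0 to 4 members with the robust SD of the empty spots. The number of members above the Signal threshold rose from 0 to 8 in spleen at a threshold of 250, and fell in heart from 8 to 4 under quantile normalization and to 0 at a threshold of 1000. The median ratio of liver to muscle was 1.87 under quantile normalization. Scaling by the spike calibration spots, chosen after seeing the data, gave 1.09 for liver to muscle, 1.35 for muscle to heart, 4.73 for heart to spleen and, over brain, at least 16.4 for liver, 13.6 for muscle and 2.38 for spleen, and left 1 of 7 members with liver above muscle beyond the error. Without normalization between arrays, muscle to heart was 1.04, heart to spleen 5.12 and, over brain, liver at least 16.2, muscle 11.003 and spleen 2.31. The members with muscle above heart beyond the error fell from 12 to 4 there, and the ratio of muscle to heart reversed for ccr-miR-200a (0.988), dre-miR-141 (0.900), dre-miR-200b (0.856), dre-miR-200c (0.874), ipu-miR-200b (0.916) and ola-miR-200b (0.908). Of the 5 nearest other probes, 3 stayed among the nearest 5 without normalization between arrays, with a floor of 10 and with the maximum absolute difference. The cause of these shifts was not tested. Of 280 values of single probes, 104 more moved by over their error, and 170 did not. Spot scatter and the SD of the empty spots limit the liver values most, and the distance to the empty spots limits those in brain.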
